A study of Mus musculus with 6 samples.

Results

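Voltage-gated calcium and sodium channel genes were read out in outer hair cells of the embryonic mouse cochlea. The genes were chosen by symbol: every row of the count tables for a calcium channel alpha1, beta, gamma or alpha2delta subunit or for a sodium channel alpha or beta subunit, in the form Cacna, Cacnb, Cacng, Cacna2d or Scn with its number and letter. The rule found 39 of the 23337 listed symbols, 26 of them calcium channel genes and 13 sodium channel genes. The brain sodium channel gene listed under its older symbol Scn2a1 fell outside the rule and is given only where it bears on a value. The cells came from the organ of Corti at E18.5, late in gestation, and were sorted by a label named Insm1-GFP-Cre. There were 3 libraries labelled Insm1-Het and 3 labelled Insm1-KO, and the Het libraries are the controls. All sorted cells were positive for this label, and no wild-type library was compared. The labels do not say how the allele was built, how many animals went into a library or whether libraries shared a litter. The p-values therefore cover the spread among these 6 libraries, part of which may be technical.

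A voltage-gated calcium channel is built around a pore-forming alpha1 subunit, to which a cytoplasmic beta subunit and an extracellular alpha2delta subunit bind and bring the channel to the membrane. In hair cells the L-type channel Cav1.3, encoded by Cacna1d, carries most of the calcium current, which triggers transmitter release at the ribbon synapse and drives action potentials before the onset of hearing. Voltage-gated sodium channels consist of a large alpha subunit and small beta subunits, and immature hair cells are known to have sodium currents that are lost as they mature. Most Cacng genes, although named as calcium channel gamma subunits, encode auxiliary proteins of AMPA-type glutamate receptors.

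Sequencing depth was 10721902 to 12427039 counts per Het library and 7705177 to 9748629 per KO library, so every KO library was shallower than any Het library. Insm1 itself was counted in all libraries, at 69.2 to 116 CPM (counts relative to the TMM-scaled library total) in Het and 18.7 to 78.7 CPM in KO libraries. The ranges overlapped, and which stretch of the gene was removed is not stated in the labels, so this level does not check the genotype labels. General hair cell genes were abundant throughout: Myo6, a hair cell myosin, had at least 37921 counts and Pou4f3, a hair cell transcription factor, at least 1387 counts in each library. Of genes that define the outer hair cell, the motor protein gene Slc26a5 had 165 to 647 counts per library, while the calcium buffer gene Ocm had 0 counts in each Het library and 15 to 33 in KO libraries. Slc17a8, which defines inner hair cells, had at most 18 counts.

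Of the 39 channel genes, 20 passed the filter on low counts and were tested, 13 for calcium and 7 for sodium channels. Another 15 had counts but did not pass, and 4 had 0 counts in all 6 libraries. Under Poisson counting alone, 0 counts give a 95% upper limit of 0.0487 CPM over the libraries together. Spread between libraries is not part of that limit. Between 22 and 29 of the genes had at least 1 count in a given library, and 15 were counted in every library. Together they took 0.185% to 0.227% of all counts. The 6 most abundant held 86.1% to 92.7% of these counts per library: Scn11a, Cacna1d, Cacnb2, Scn3b, Cacng5 and Cacnb3, each with a mean of at least 100 CPM.

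Levels of different genes were compared per length, as CPM per kilobase of exonic sequence (RPKM). Scn11a had by far the highest level, 117 RPKM on average over the 6 libraries, and its lowest library (87.2 RPKM) lay above the highest library of every other channel gene. Cacng5, Scn3b, Cacna1d, Cacnb3 and Cacnb2 followed at 36.0, 29.3, 29.1, 27.3 and 23.5 RPKM. The ranges of every pair of these 5 overlapped, and none was above the next in this order in more than 4 of 6 libraries. Within libraries, Cacng5 was above Cacnb3 in 6 of 6 and above Cacna1d and Cacnb2 in 5 of 6. Cacnb2, the last of them, was above Cacng7 in 6 of 6. Below them, Cacng7, Cacna2d2 and Cacna1b averaged 9.91, 6.53 and 5.65 RPKM. Scn2b, Cacng2 and Cacng4 followed at 3.56, 3.03 and 1.38 RPKM. Among 11598 tested genes with a length, Scn11a ranked 209, Cacng5 1232, Scn3b 1620 and Cacna1d 1634 by mean RPKM. In bulk samples, fewer cells with a transcript and less of it per cell cannot be told apart.

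**Figure D1:**
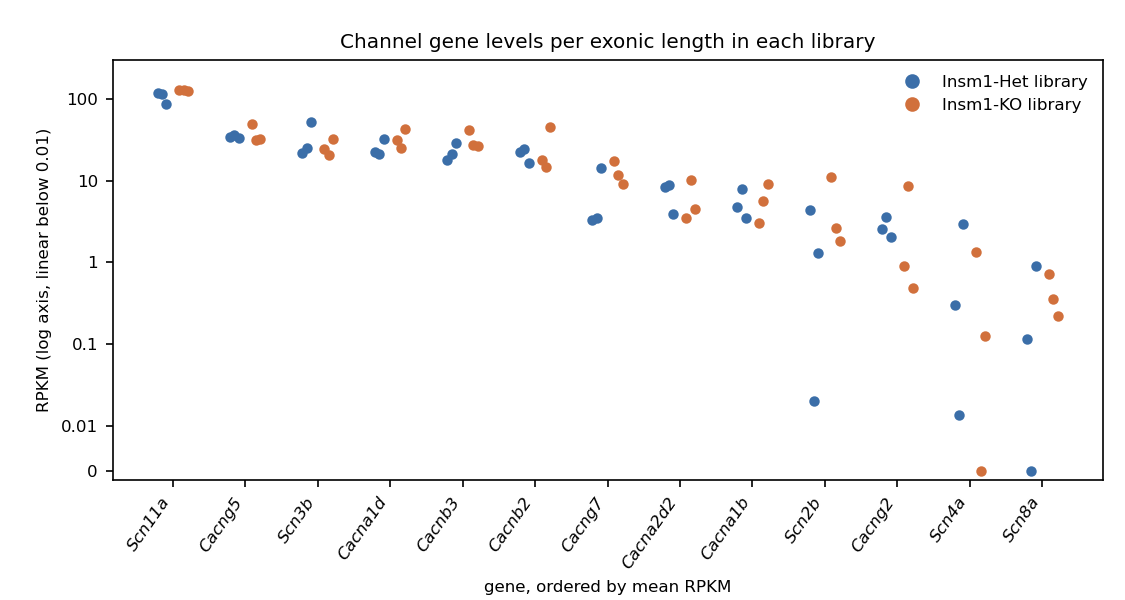
RPKM of 13 tested channel genes with a mean of at least 5 CPM, 1 point per library, on an axis that is logarithmic above 0.01 and linear below. Scn11a stands above all others in every library, and the points of Scn2b, Scn4a and Scn8a spread far more between libraries than those of the leading genes.

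The sodium channel repertoire was almost entirely Scn11a. Scn11a encodes Nav1.9, a tetrodotoxin-resistant channel best known from pain-sensing neurons, where it passes a persistent current near the resting potential. The gene lies on chromosome 9 of GRCm38, from 119753759 to 119825456 on the minus strand. Its counts were 8640, 7223 and 6540 in Het replicates 1, 2 and 3 and 7218, 5935 and 6630 in KO replicates 1, 2 and 3. It took 96.2% ± 2.84 (SD, n = 3) of the summed RPKM of the 9 sodium channel alpha genes in Het libraries and 98.5% ± 1.16 in KO libraries. With Scn2a1 counted among the alpha genes, the Het share was 96.0%.

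A neighbour of Scn11a in the genome, Scn10a, a channel of sensory neurons, was far lower, at a mean of 0.155 RPKM. It lies on the same strand from 119608456 to 119719322, and the gap between the genes is 34436 bases. Scn10a had 0, 0 and 3 counts in the Het libraries and 66, 0 and 1 counts in KO replicates 1, 2 and 3, so that KO replicate 1 held 94.3% of its 70 counts. The 250 bases before the annotated starts of Scn11a and Scn10a are printed because these adjacent genes differ so widely in level. The first window is chr9:119825457-119825706 and the second chr9:119719033-119719282, both on the minus strand, from RefSeq on GRCm38.p6. Capitals mark the E-box CAGCTG, a palindrome of the kind bound by basic helix-loop-helix factors.
Scn11a: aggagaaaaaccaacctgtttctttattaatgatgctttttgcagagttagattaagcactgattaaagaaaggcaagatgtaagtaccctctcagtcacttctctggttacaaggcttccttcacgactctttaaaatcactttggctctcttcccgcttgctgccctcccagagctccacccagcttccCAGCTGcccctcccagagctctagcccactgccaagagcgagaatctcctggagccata
Scn10a: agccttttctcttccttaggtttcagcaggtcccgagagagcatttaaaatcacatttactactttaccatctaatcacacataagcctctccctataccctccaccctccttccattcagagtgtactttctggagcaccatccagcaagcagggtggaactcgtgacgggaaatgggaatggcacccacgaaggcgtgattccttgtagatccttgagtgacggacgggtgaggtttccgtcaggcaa
The E-box lies in the Scn11a window, with its first base 59 bases before the start, and these letters are not in the Scn10a window. They read the same on both strands, and 13.0% of 32851 RefSeq windows of this length hold them. GC content was 48.0% and 49.6%, with 3 and 8 CpG, against a median of 55.6% and 10 CpG over 21262 windows of protein-coding genes.

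The other sodium channel alpha genes were low and uneven between libraries. Scn9a, a channel of sensory neurons, had 199 and 211 counts in Het replicates 2 and 3, 7 in KO replicate 1 and 0 in the other libraries. Scn8a, known from the axon initial segment, had 22, 0 and 181 counts in the Het libraries and 107, 43 and 31 in KO libraries. Scn4a, the skeletal muscle channel, had 26, 1 and 265 counts in the Het libraries and 87, 0 and 8 in KO libraries. Het replicate 3 was highest for both Scn4a and Scn8a. Scn1a and Scn3a, channels of the brain, had 20 and 4 counts in total, and Scn7a had 0. Scn2a1, outside the rule, had 136 counts in total, 92 of them in Het replicate 3.

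Neuronal markers were measured beside these channels. The summed level of 21 neuronal marker genes was 1087 to 1233 CPM in Het and 999 to 1622 CPM in KO libraries. Most of it came from the neurofilament genes Nefm and Nefl. Th had 0 counts in all libraries, the neuronal tubulin gene Tubb3 had at most 26 counts in a library, and Prph, a neurofilament of sensory neurons, had 61 counts in Het replicate 2 and 0 in the others. Snap25, a gene of the vesicle fusion machinery, had 670 to 1825 counts in each library, or 71.5 to 144 CPM. The part of neuronal RNA in the channel levels was not tested.

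Among the beta subunits of the sodium channel, Scn3b, a non-covalently bound subunit that shifts channel gating, was the most abundant. Its counts gave 118, 137 and 282 CPM in Het and 134, 112 and 177 CPM in KO replicates 1, 2 and 3. Het replicate 3 was the highest library, and the genotypes overlapped. Scn3b held 68.3% ± 13.0 (SD, n = 3) of the summed RPKM of the 4 beta genes in Het and 74.8% ± 12.9 in KO libraries. Scn2b, a covalently bound subunit, stood at 20.4, 0.0937 and 6.01 CPM in Het and 52.2, 12.1 and 8.57 CPM in KO libraries. Its lowest library, Het replicate 2, held 1 count, and its highest, KO replicate 1, held 489. Scn4b, which lies 8324 bases from Scn2b on chromosome 9, had 70 counts in Het replicate 1 and 0 in the other 5 libraries.

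Of the calcium channel alpha1 genes, Cacna1d led. It lies on chromosome 14 (GRCm38, 30039939 to 30491455, minus strand) and stood at 286, 267 and 404 CPM in Het and 395, 314 and 537 CPM in KO replicates 1, 2 and 3. KO replicate 3 was the highest library, and the genotypes overlapped. Within the L-type group it was nearly the sole gene, with 99.1% ± 0.801 (SD, n = 3) of the summed RPKM in Het and 99.7% ± 0.406 in KO libraries. Cacna1c, the L-type channel of heart and smooth muscle, had 14, 1 and 123 counts in the Het libraries and 47, 3 and 2 in KO libraries. Cacna1f, the L-type channel of the retina, had 30 counts in Het replicate 1 and 0 elsewhere, and Cacna1s of skeletal muscle had 0 in all. Over all 10 alpha1 genes, the share of Cacna1d was 79.9% ± 6.85 in Het and 83.2% ± 2.38 in KO libraries.

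RefSeq gives Cacna1d a pair of starts with unlike surroundings, and the counts, which are summed per gene, do not tell them apart. The 250 bases before each are shown because the leading calcium channel gene can be read from either. They are chr14:30491157-30491406 for the distal start and chr14:30353487-30353736 for the proximal start, on the minus strand of GRCm38.p6. Capitals mark matches to CAGCTG and, on either strand, to TATAAA, including a pair of matches that overlap.
Cacna1d distal: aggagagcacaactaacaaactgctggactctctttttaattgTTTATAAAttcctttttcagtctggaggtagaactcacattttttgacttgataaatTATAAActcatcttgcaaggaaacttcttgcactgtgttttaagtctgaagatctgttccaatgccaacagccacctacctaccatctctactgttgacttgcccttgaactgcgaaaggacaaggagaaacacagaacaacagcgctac
Cacna1d proximal: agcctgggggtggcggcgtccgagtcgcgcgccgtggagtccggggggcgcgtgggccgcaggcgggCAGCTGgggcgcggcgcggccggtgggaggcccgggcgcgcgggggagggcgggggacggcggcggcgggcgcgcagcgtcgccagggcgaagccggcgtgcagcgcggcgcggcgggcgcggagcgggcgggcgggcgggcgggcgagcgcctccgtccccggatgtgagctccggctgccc
The distal window has 39.6% GC and 2 CpG, and the proximal window has 86.4% GC and 50 CpG. TATAAA occurs at 3 positions in the distal window, the first bases lying 207, 205 and 150 before the start, and 12.4% of all 32851 windows hold it. The 39 windows listed for 29 of the channel genes include only 1 with TATAAA, or 2.56%, and this is the distal window of Cacna1d. CAGCTG occurs in 28.2% of these 39 windows, that of the proximal start included. CAGGGG, letters of the published Insm1 motif, is in none of the 4 printed windows on either strand. It is in 43.6% of the 39 windows, against 21.2% of all windows and 22.5% of those of protein-coding genes. These shares are descriptions and were not tested, and several of the 39 windows belong to the same gene.

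The second alpha1 gene was Cacna1b, which encodes the N-type channel of presynaptic endings. It was counted at 47.8, 78.2 and 34.7 CPM in Het and 30.002, 56.3 and 90.3 CPM in KO replicates 1, 2 and 3, with both the lowest and the highest value in KO libraries. It took 17.9% ± 8.84 (SD, n = 3) of the summed alpha1 RPKM in Het and 14.8% ± 5.66 in KO libraries. The P/Q-type gene Cacna1a had 47 of its 50 counts in Het replicate 3, and the R-type gene Cacna1e had 184 of its 205 counts in KO replicate 1. The T-type genes, which open at low voltage, were nearly absent: Cacna1g had 1 count and Cacna1h 28 in total. Cacna1i, the third T-type gene, had 98 counts in Het replicate 3, 101 in KO replicate 1 and at most 4 elsewhere.

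The beta subunit genes Cacnb2 and Cacnb3 were both abundant. Cacnb2, whose product is the beta subunit known to support Cav1.3 current in inner hair cells, lies on chromosome 2 from 14603088 to 14987908, plus strand. It stood at 299, 320.5 and 219 CPM in Het and 233, 195.0 and 600.0 CPM in KO replicates 1, 2 and 3. KO replicate 3 was the highest library and KO replicate 2 the lowest, so the genotypes overlapped. Cacnb3, which lies on chromosome 15 from 98630840 to 98644529, stood at 71.5, 85.2 and 117 CPM in Het and 168, 109 and 107 CPM in KO libraries. Which of the pair led depended on the library and on the length used: per exonic base Cacnb3 held 42.9%, 46.3% and 63.8% of the summed beta RPKM in Het and 69.1%, 61.9% and 36.6% in KO replicates 1, 2 and 3. Per coding base its mean share was 32.5% in Het and 38.3% in KO libraries, and Cacnb2 led with 66.5% and 59.8%. Cacnb1 and Cacnb4, the beta subunits of skeletal muscle and of the brain, stayed at or under 8.22 and 5.98 CPM in every library.

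Of the alpha2delta genes, which raise the number of channels at the membrane, Cacna2d2 held 90.3% ± 1.97 (SD, n = 3) of the summed RPKM in Het and 97.4% ± 2.84 in KO libraries. The lowest KO share (94.2%) lay above the highest Het share (92.4%). This separation was not tested, and the rest of the sum came from low counts of the other alpha2delta genes. The level of Cacna2d2 itself was 66.1, 69.3 and 31.2 CPM in Het and 28.0, 80.7 and 36.1 CPM in KO replicates 1, 2 and 3, a spread that the genotypes shared. Cacna2d1 had 29, 75 and 68 counts in the Het libraries and 24, 6 and 0 in KO libraries. Cacna2d4, known from the retina, had 97 of its 121 counts in Het replicate 1, and Cacna2d3 had 6 counts, all in that library.

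Among the gamma genes, Cacng5 was the most abundant. This auxiliary subunit gene of AMPA receptors lies on chromosome 11 from 107874605 to 107915055, minus strand. It stood at 132, 137 and 129 CPM in Het and 188, 119.9 and 123 CPM in KO replicates 1, 2 and 3. It held 74.4% ± 6.90 (SD, n = 3) of the summed RPKM of the 6 AMPA receptor auxiliary genes in Het and 69.6% ± 8.22 in KO libraries. Cacng4, its neighbour 80047 bases away, had 157, 105 and 34 counts in the Het libraries and 37, 0 and 4 in KO libraries. Cacng1, the gamma subunit of the skeletal muscle channel and next in the row, had 0 counts in all libraries.

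Cacng7, of the same subtype as Cacng5, stood at 8.14, 8.62 and 34.6 CPM in Het and 42.4, 28.8 and 22.5 CPM in KO replicates 1, 2 and 3. Het replicates 1 and 2 were the low libraries. Its neighbours on chromosome 7, Cacng8 and Cacng6, had 1 and 6 counts in total. Cacng2, or stargazin, stood at 14.0, 19.9 and 11.4 CPM in Het and 5.02, 47.1 and 2.67 CPM in KO libraries, and KO replicate 2 held 361 counts of it. Cacng3 had 0 counts in all libraries.

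**Figure D2:**
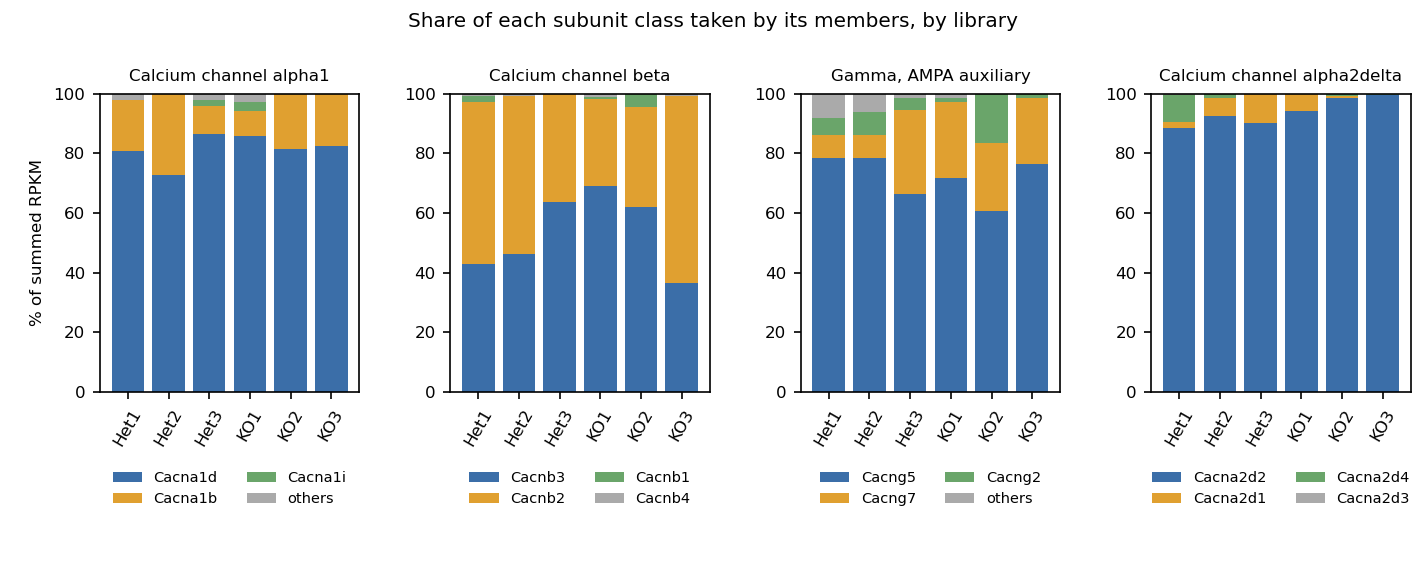
Percent of the summed RPKM of each subunit class that each gene took, 1 bar per library. Cacna1d, Cacng5 and Cacna2d2 led their classes in every library, while Cacnb3 and Cacnb2 changed places between libraries of both genotypes.

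**Figure D3:**
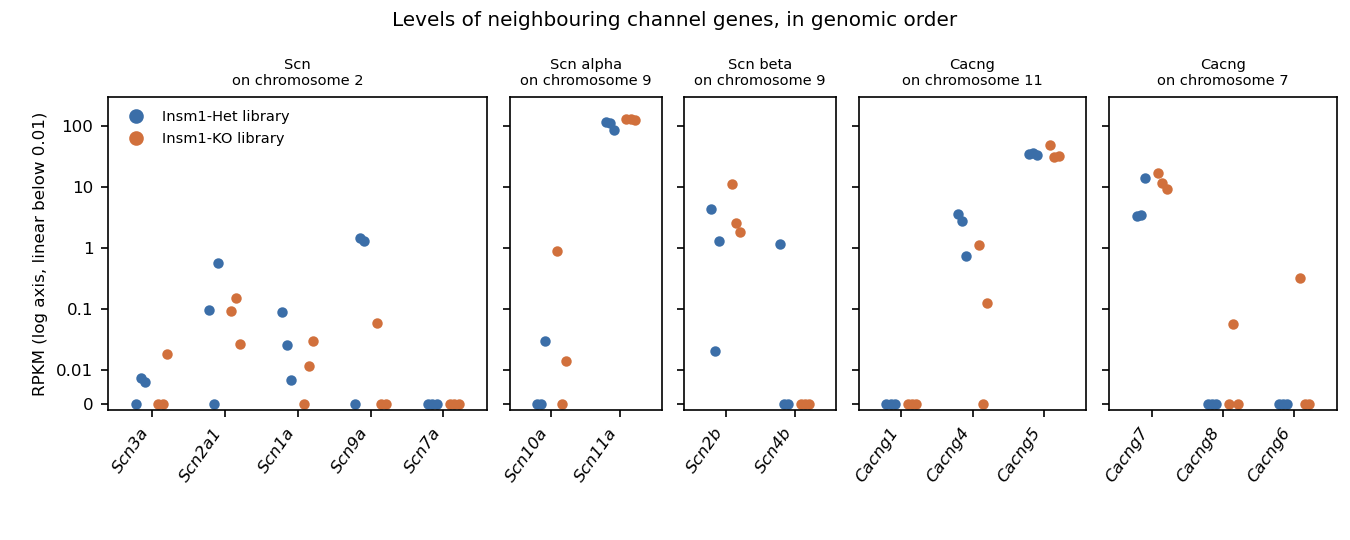
RPKM of channel genes that lie side by side, in genomic order within 5 clusters, 1 point per library, on an axis that is logarithmic above 0.01 and linear below. Scn11a and Cacng5 stand far above the genes next to them in all 6 libraries. Scn2a1, in the chromosome 2 cluster, is outside the rule.

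The abundant channel genes were measured with little spread and the rare ones with much. For each gene the highest library was divided by the lowest after adding 0.5 CPM. The 6 genes with a mean of at least 100 CPM had ratios from 1.497 for Scn11a to 3.07 for Cacnb2, with a median of 2.18, beside a median of 1.93 over the 2517 tested genes at that level. The 3 genes from 20 to 100 CPM had a median of 2.98, against 3.35 over 4688 genes. The 6 genes from 5 to 20 CPM reached 88.8, for Scn2b. Their median was 36.2, beside a median of 9.76 and an upper quartile of 22.5 over 3123 genes. Of the 15 untested genes with counts, 11 had at least 2 of every 3 counts in a single library, among them 7 of the 9 with more than 20 counts.

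The genotype comparison asks whether the channel repertoire of outer hair cells differs between the libraries labelled Insm1-KO and those labelled Insm1-Het. Scn11a stood at 704, 676 and 517 CPM in Het and 771, 774 and 738 CPM in KO replicates 1, 2 and 3, with every KO library above every Het library on this scaling. With upper quartile or library-size scaling the ranges overlapped, at 688 and 682 CPM in KO replicate 3 against 723 and 738 CPM in Het replicate 1. The means were 632 ± 101 and 761 ± 20.03 CPM (SD, n = 3), a log2 fold change of 0.27 (95% interval -0.15 to 0.68). It did not pass by edgeR with Benjamini-Hochberg adjustment (adjusted p = 0.958), the exact permutation p was 0.1, and without Het replicate 3 the log2 fold change was 0.15.

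Of the 20 tested genes, 0 passed at an adjusted p of 0.05 by edgeR, where 0.0% of all 11714 tested genes did. DESeq2 and limma-voom also passed 0 of the 20. At an unadjusted p under 0.05 edgeR and DESeq2 each had 1 and limma-voom 0, beside 5.34% of all genes in edgeR. Non-overlap was found for 1 gene upward and 1 downward of 20, against 5.08% and 6.1% of all tested genes, so both counts are near the background. The log2 fold change was above 0 for 12 and below 0 for 8 of the 20, with a median of 0.20 against 0.02 over all tested genes. The 20 are those that passed the filter, so these counts do not describe the 39 genes as a whole.

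**Figure D4:**
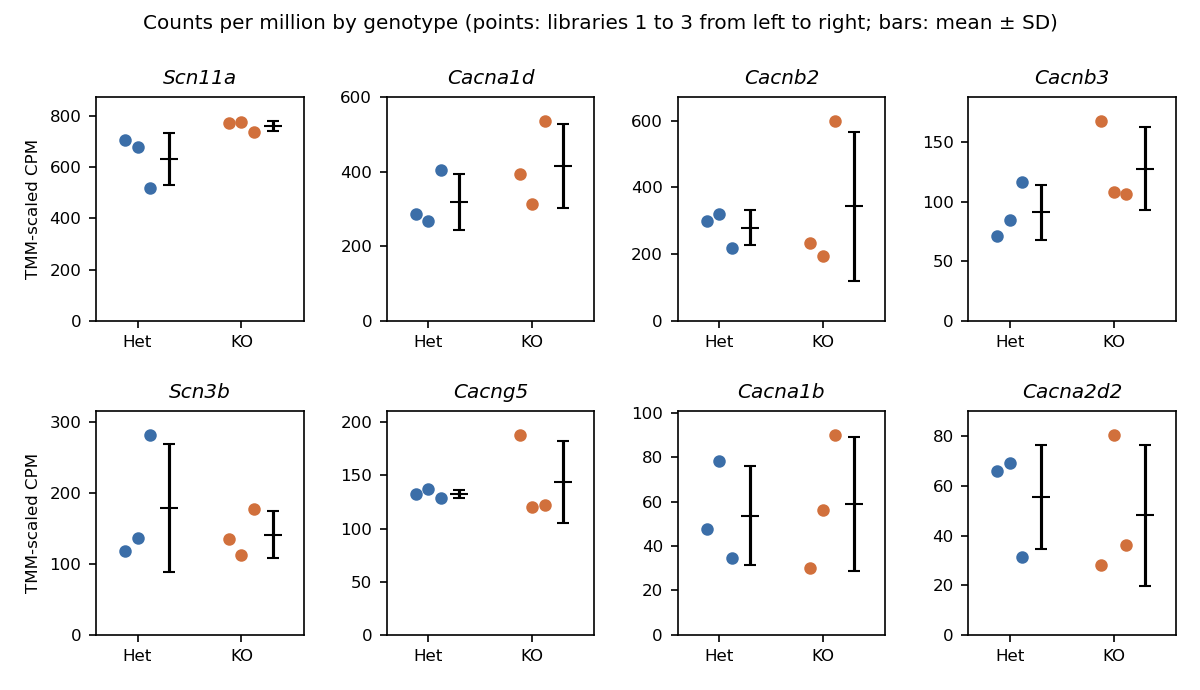
TMM-scaled CPM of 8 channel genes, 1 point per library, with the mean and SD of each genotype beside the points. The genotypes of Scn11a do not overlap on this scaling but do with upper quartile or library-size scaling. KO replicate 3 sets the high KO mean of Cacnb2.

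Several other quantities did not overlap between the genotypes. Total counts were lower in all KO libraries. The summed level of the inner hair cell marker genes, of which 6 of 8 were listed and 0 were at 0 throughout, was 410 to 472 CPM in Het and 649 to 945 CPM in KO libraries. Of its 4 tested genes, 0 passed and 3 (Brip1, Tbx2 and Rprm) had an unadjusted p under 0.05 by edgeR, all above 0, beside 3.19% of all genes, while Slc7a14 had a log2 fold change of -0.14. Brip1 and Tbx2 had 6, 0 and 75 and 2, 1 and 8 counts in the Het libraries. Both entered the test through the KO libraries, where they were high, so the share of all genes is not a like comparison for them. This list was chosen with earlier results of these data known. Mean levels in Het and KO libraries were 2.14 and 195 CPM for Brip1 and 210 and 373 CPM for Rprm. Slc17a8, also on the list, had 21 counts in Het and 18 in KO libraries in total and was not tested. The summed level of 15 supporting cell marker genes was 1619 to 1868 CPM in Het and 1894 to 2444 CPM in KO libraries, with 0 of them at 0 throughout. Of its 14 tested genes 8 were above and 6 below 0, and 0 passed. Lfng and S100a1 were above 0 (log2 fold change 1.58 and 0.69, unadjusted p = 0.0134 and 0.0260 by edgeR). Gjb2, a gap junction gene, was below 0 (log2 fold change -2.41, unadjusted p = 0.00857 by edgeR). Non-overlap was found for 2 genes upward and 1 downward of the 14, beside 5.08% and 6.1% of all tested genes. Of the 7 erythroid genes in the files, 6 were at 0 throughout, so their sum rested on a single gene near the floor. It was 0 to 0.651 CPM in Het and 0.747 to 4.96 CPM in KO libraries. A few counts set the order of libraries at this level. The sums of the general hair cell, neuronal, glial, mesenchymal, muscle, endothelial, immune, ridge, strial and outer hair cell markers overlapped between genotypes. In these lists 0 genes passed by edgeR, and an unadjusted p under 0.05 was found above 0 for 4 of 16 tested hair cell genes (Atoh1, Pcp4, Tmc1 and Tmc2), for Ocm and for the glial gene Erbb3, and below 0 for the neuronal gene Elavl4. Ocm, with 0 counts in each Het library, and Tmc1, with 117, 5 and 31, entered the test through the KO libraries. Their direction was therefore favoured by the filter. The part of these quantities in the values of Scn11a was not tested.

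For the calcium channel genes the intervals were of unequal use. The mean of Cacna1d was 319 ± 74.3 CPM in Het and 415 ± 113 CPM in KO (SD, n = 3). Its log2 fold change was 0.38 (95% interval -0.18 to 0.94), and 0.16 without KO replicate 3. Cacng5 had a log2 fold change of 0.11 (-0.53 to 0.76), and -0.13 without KO replicate 1. With Scn11a, these were the 3 genes whose interval lay within a 2-fold change in either direction. Cacnb3 had a log2 fold change of 0.49 (-0.26 to 1.23), and 0.24 without KO replicate 1. Cacnb2 had one of 0.30 (-0.49 to 1.08). The value of Cacnb2 turned to -0.37 without KO replicate 3. Cacna2d2 was at -0.20 (-1.36 to 0.95) and 0.071 without KO replicate 1, and Cacna1b at 0.14 (-0.97 to 1.25) and -0.30 without KO replicate 3. Cacng7 was at 0.87 (-0.73 to 2.46) and 1.90 without Het replicate 3. None passed by edgeR.

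The rarer genes allowed wide intervals only. Cacng4 had the lowest fitted value, a log2 fold change of -2.51 (95% interval -6.07 to 1.05), and Cacna2d1 was at -2.13 (-5.87 to 1.62). Both passed the filter through the Het libraries, where they were higher, so their place at the low end may partly follow from it. Scn2b was at 1.46 (-1.19 to 4.10), and at 0.22 without KO replicate 1. Scn4a was at -1.18 (-5.16 to 2.79), and at 1.605 without Het replicate 3. Scn8a was at 0.35 (-3.06 to 3.75) and Cacng2 at 0.27 (-1.88 to 2.43). The sign of Scn8a turned without Het replicate 1 (-0.080), Het replicate 2 (-0.24) or KO replicate 1 (-0.25), and that of Cacng2 without KO replicate 2 (-1.96). Cacna1c, Cacnb1 and Cacnb4 were at -0.95, 1.46 and 0.87, each with an interval wider than 7 log2 units. Scn3b, although abundant, was at -0.34 (-1.11 to 0.43), and at 0.16 without Het replicate 3. For the rarer genes a difference was not detectable at this depth and spread.

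**Figure D5:**
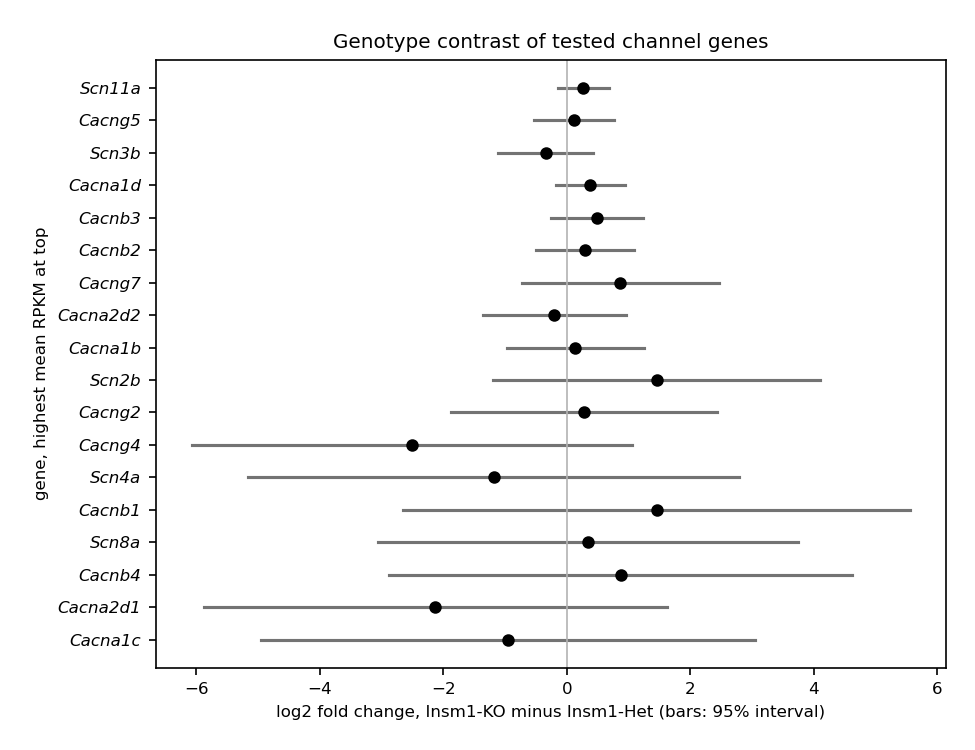
Log2 fold change, KO minus Het, of 18 tested channel genes with 95% intervals, ordered by mean RPKM with the highest at the top. The intervals of the upper 6 genes are narrower than those below, and 3 of them lie within a 2-fold change in either direction. All intervals shown include 0.

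Lists of genes that act with these channels, chosen with earlier results of these data known, were read in the same fit. In the list of 20 Cav1.3 partners, 16 were tested, 0 passed by edgeR and 0 reached an unadjusted p of 0.05. Their median log2 fold change was -0.01, and 2 of the 16 were higher and 1 lower in KO without overlap. Calm2, a gene for the calcium sensor calmodulin, stood at 1122 to 1217 CPM in Het and 952 to 1278 CPM in KO libraries. Of 19 genes for trafficking and regulation of calcium channels, 14 were tested and 0 passed, with 4 above and 10 below 0 and a median of -0.32. Of these 14, 0 were higher and 3 lower in KO without overlap, beside 5.08% and 6.1% of all tested genes. In this list Nedd4l is a ubiquitin ligase that removes channels from the membrane and is also on the sodium channel list. Nedd4l was at 202, 223 and 265 CPM in Het and 171, 114 and 126 CPM in KO libraries (log2 fold change -0.74, unadjusted p = 0.0186 by edgeR, not passing after adjustment). Akap5, a kinase anchor, was at 1.22, 2.62 and 10.99 CPM in Het and 21.99, 4.57 and 51.3 CPM in KO libraries, with overlap between genotypes. The kinase genes Prkca and Camk2b were the most abundant tested members, at 185 to 289 CPM and 143 to 237 CPM.

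In the list of 19 sodium channel partners, 14 were tested, 0 passed and 5 had an unadjusted p under 0.05 by edgeR, with 3 above and 2 below 0, beside 3.19% and 2.15% of all genes. The median log2 fold change was 0.29, with 10 of 14 above 0. Nfasc, a cell adhesion molecule that holds sodium channels at nodes, stood at 196, 202 and 256 CPM in Het and 293, 327 and 418 CPM in KO replicates 1, 2 and 3. Cntn1, a contactin that binds sodium channel beta subunits, stood at 12.9, 15.1 and 12.4 CPM in Het and 23.3, 39.1 and 60.8 CPM in KO libraries. Tnc, an extracellular matrix protein, ranged from 3360 to 4511 CPM in Het and from 4756 to 5627 CPM in KO libraries. These 3 did not overlap between genotypes. Of the 14 tested partners, 4 were higher and 2 lower in KO without overlap, beside 5.08% and 6.1% of all tested genes. Ank2, an ankyrin adaptor named here after its value was seen, was the second gene below 0 beside Nedd4l, with a log2 fold change of -1.99.

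Other channels of the same superfamily and the calcium-activated potassium channels gave 5 tested genes each and 0 that passed by edgeR. Unc79, an accessory protein of the sodium leak channel, stood at 19.8 to 77.3 CPM in Het and 36.5 to 78.2 CPM in KO libraries, and Tpcn1, an endolysosomal channel, at 16.8 to 75.5 CPM and 23.8 to 56.6 CPM. Kcnmb2, an accessory subunit of the large-conductance potassium channel, stood at 92.9 to 136 CPM and 66.1 to 116 CPM. Kcnn2, the small-conductance channel coupled to efferent input, stood at 0.468 to 33.7 CPM and 0.668 to 14.2 CPM. All 5 tested genes of the calcium-activated list were below 0, with a median of -1.53, and each overlapped between genotypes.

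Reads of overlapping genes cannot be told apart without a stated strand setting. For Cacna1d this concerns 4.67% of its exonic bases, shared with Chdh on the opposite strand, and Chdh had 85 counts in all, none of them in KO libraries. Cacnb2 shares up to 4.67% of its exonic bases with a single other gene and Cacng2 5.86%, and Scn11a, Scn3b, Cacnb3 and Cacng5 share none with an annotated gene.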

How the data were processed

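The members and the gene lists were chosen with earlier results of these data known. The authors deposited raw read counts per gene symbol, 1 table per library. The build was GRCm38 (mm10) and the tools Trimmomatic, STAR and HTSeq, per the submitters' processing notes. For versions, annotation, strand setting and multiply mapped reads the entry is: not given in the sources used here. Paralogous channel genes are similar in sequence, so their low counts depend on that handling.

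From the counts, genes were kept by filterByExpr (minimum count 10, minimum total 15), which left 11714 of 23337 symbols; the rest held 0.274% of counts. Genotypes were compared with edgeR 4.0.16 (TMM scaling, glmQLFit and glmQLFTest, genotype as the only term), adjusted by Benjamini-Hochberg over all tested genes at a threshold of 0.05; R was 4.3.3. SE is the log2 fold change divided by the square root of F. CPM comes from edgeR's cpm function on TMM-scaled totals of the tested genes. RPKM is CPM per kilobase of the union of exons in GENCODE M21 on GRCm38. The fit was run on simulated counts with known changes in well-counted genes. The simulated spread was fixed for all genes and does not stand for the spread of these libraries. Some genes are in the fits, counts and sums but are not reported here.

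Values are given for every library for genes with a mean of at least 5 CPM or an unadjusted p under 0.05, and for Cacna1d with its leading beta and alpha2delta genes. In partner lists the 2 most abundant tested genes and up to 3 with an unadjusted p under 0.05 are named; marker lists are given by their sums and defining genes. Alternatives were DESeq2 1.42.0, limma-voom (limma 3.58.1), 3 other scalings, 2 other filters, a robust fit, the newer edgeR fit, the replicate number as a block, an adjusted p of 0.1, other lengths and each library left out.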

Additional observations from a re-analysis of the deposited data

How the results depend on the processing

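The number of channel genes past the threshold was 0 in every alternative, each library left out included. Over all genes it was 26 with DESeq2, 67 with no filter, 1 with the newer fit, 1 with the replicate block, and 0 to 0 without any 1 library; the cause was not tested. Same-numbered libraries had correlations of 0.010, 0.0073 and 0.014, and the other pairs ranged from -0.027 to 0.023. Such values show no pairing by number, but they cannot exclude a shared litter. Of 207 alternative log2 fold changes of 13 genes, 194 kept their direction and 13 reversed. Cacng2 was -0.87 with limma-voom and -0.83 with the replicate block. With 1 library left out the ranges were -0.30 to 0.51 for Cacna1b, -0.78 to 0.071 for Cacna2d2, -0.37 to 0.59 for Cacnb2, -1.96 to 0.79 for Cacng2, -0.13 to 0.24 for Cacng5, -0.57 to 0.16 for Scn3b, -4.06 to 1.605 for Scn4a and -0.25 to 2.91 for Scn8a. With coding length in place of exonic length, shares moved by more than the spread to 32.5% (Het) and 38.3% (KO) for Cacnb3, 86.5% (Het) for Cacna2d2, 83.2% (Het) for Scn3b and 86.2% (KO) for Cacna1d among alpha1 genes. Without a length correction they were 24.9% and 30.3%, 86.8% and 83.0% for the first 3 genes in that order. Lengths change the divisor only, and exons of unequal use were not known. Depth and spread between libraries limit the rarer genes most, but these sign changes also include genes above 20 CPM (Cacna1b, Cacna2d2, Cacnb2, Cacng5 and Scn3b).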
